A study of Rattus norvegicus with 6 samples.

Results

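Small RNA libraries of rat nucleus pulposus, the soft centre of a spinal disc, listed 114 sequences of 17 or 18 nt that carry only a provisional name built from a chromosome. They were taken from the table of raw tag counts as every distinct provisionally named sequence of that length, except for 2 very abundant 18-nt sequences that are set beside them here only for comparison. The 114 were part of 442 distinct sequences, of which 238 had provisional names and 204 the name of an established miRNA. A tag is a read sequence with its count, and all values below are counts or shares of tags.

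The IDD group was 3 libraries of rats whose discs were under compression for 4 weeks, a model of disc degeneration, and the Sham group was 3 libraries of rats that carried K-wires, with no compression named in the label, for the same 4 weeks. The labels give no strain, age or sex and do not tie libraries to animals, so a p-value here reflects only how far these samples varied, which may be technical. The design asks which miRNAs respond to mechanical load. Library totals over distinct sequences were 189802 to 246422 tags in IDD and 169783 to 253807 in Sham. The tissue check rests on the 4 arms of miR-140 and miR-455, miRNAs of cartilage, which were all listed and summed to 12.3% to 12.9% of an IDD library and 7.62% to 10.2% of a Sham library. All 5 muscle miRNAs of the marker lists were also present, at 39.1% to 43.4% per IDD library against 20.2% to 22.8% per Sham library. Of 5 leukocyte markers 2 were listed, together higher in IDD (0.00843% to 0.0106%, against 0.00355% to 0.00471% in Sham), and of 4 epithelial markers 1 was listed, at 0 in every IDD library and 0.0106% to 0.0377% in Sham. As shares of all tags, the groups overlapped for the markers of red blood cells (2 of 3 listed), endothelium (2 of 2) and liver (1 of 1). By the edgeR test described below, the red blood cell marker miR-486 was lower in IDD (log2 fold change -0.39, adjusted p = 0.0065). The liver marker miR-122-5p was not called (-0.04, adjusted p = 0.741), and the other markers of these 3 lists were not tested. The part of such tissues in the results was not tested. These marker values are shares of all tags, of which established miRNAs held 80.75% in IDD and 53.18% in Sham on average. A marker share therefore also moves with that part. A higher share in IDD need not be higher among established miRNAs, and shares that overlap need not overlap among them. In libraries of whole tissue, fewer cells of a type and less RNA per cell cannot be told apart.

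As background, a miRNA is cut by Dicer from a hairpin, and mature miRNAs are mostly longer than these tags. Libraries of small RNA also take up pieces of abundant RNAs such as tRNAs and ribosomal RNAs, and a program that searches for hairpins can give a provisional miRNA name to such a piece. Every mature tRNA ends in CCA, bases that in mammals are added after transcription, and short pieces cut from the 3′ side of tRNAs keep that end. The letters of a tag do not by themselves show where it came from, and no genome was used here to place these tags.

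The sequences that carry most of the counts and the largest differences are shown first, 5′ to 3′ and as deposited, in RNA letters. Of the 114 tags, 9 ended in CCA. The first 2 lines below are the abundant 18-nt sequences outside the group, with CCA in capitals, and the next 9 lines are the CCA-ending tags of the group, which are shown because several of them are close to these sequences.
chr7_33978, outside the group: aucucgguggaaccuCCA
chr16_15602, outside the group: aucucggugggaccuCCA
chr10_6521: aucucgcuggggccuCCA
chr15_13681: aucucggugggaccgCCA
chr3_25443: aucucgguggaacguCCA
chr11_8623: auccaagucacggcaCCA
chr13_10620: ucucugugggaccuCCA
chr6_33305: aggccgguggaaccuCCA
chr12_9312: ucucggacuuaauacCCA
chr6_32685: aucccagcagugccuCCA
chr1_1273: gaucuggagaacucaCCA
The other 105 tags had other ends. The next 6 lines show the abundant ones among them and the one with the largest fall, in lower case because no part is singled out.
chr8_37472: cugguuaguacuuggaug
chr6_32951: ucguagacgaccugcuuc
chr7_33806: cgcgggaaauguggcgua
chr5_29830: ugggugcuguaggcuuu
chr1_1343: uagggaacgugagcugg
chr8_36886: cgugacuguaccugguau

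Together the 114 tags held 1.14%, 1.36% and 1.43% of all tags in IDD 1, 2 and 3, and 2.40%, 2.39% and 2.64% in Sham 1, 2 and 3. The groups did not overlap, and the mean share was 1.31% ± 0.150 in IDD and 2.48% ± 0.144 in Sham (SD, n = 3 each). No test is given for such sums, since the tags were chosen with earlier results known. The 2 abundant 18-nt sequences outside the group took up 16.9% ± 2.58 of an IDD library and 43.5% ± 3.57 of a Sham library, so a share of all tags also moves with them. Over the tags outside these 2 sequences the group held 1.58% in IDD and 4.39% in Sham, and over the tags of established miRNAs 1.62% and 4.66%. Over provisionally named tags alone the direction turned, to 6.84% in IDD and 5.32% in Sham.

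A few tags carried nearly all of these counts. The 4 most abundant, chr8_37472, chr6_32951, chr10_6521 and chr7_33806, made up 78.9% ± 0.544 of the group's tags in IDD and 81.2% ± 0.587 in Sham. Only 15 of the 114 tags had enough counts to pass the filter on low values, and all 15 were listed in all 6 libraries. The filter asks for a level in 3 libraries, which 1 group alone can meet. chr8_36886 and chr1_4804 met it in every Sham library and not in every IDD library. chr15_14452 met it in every IDD library and not in every Sham library. These 15 held 96.0% ± 0.225 of the group's tags in IDD and 96.3% ± 0.124 in Sham, and the remaining 99 tags held the rest.

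Among the 15 tested tags, 11 were lower in IDD and none higher, by edgeR's quasi-likelihood test with Benjamini-Hochberg adjustment over all 131 tested sequences (adjusted p below 0.05). Over all 131, the percentage called lower was 30.5 and the percentage called higher 29.0. None of the 15 was higher at an unadjusted p below 0.05 in this test, and DESeq2 and limma-voom likewise called none higher after adjustment. The median log2 fold change of the 15 was -0.81, against 0.03 over all tested sequences, and 14 of the 15 were below 0. The scaled counts of the 2 groups did not overlap for 11 of the 15, beside 66.4 percent of all tested sequences. By comparison, 1 of 6 tested provisionally named tags of 19 nt and longer was lower and 2 were higher, and of 108 tested established miRNAs 26 were lower and 36 higher. Whether the group differs from the rest as a set was not tested.

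**Figure D1:**
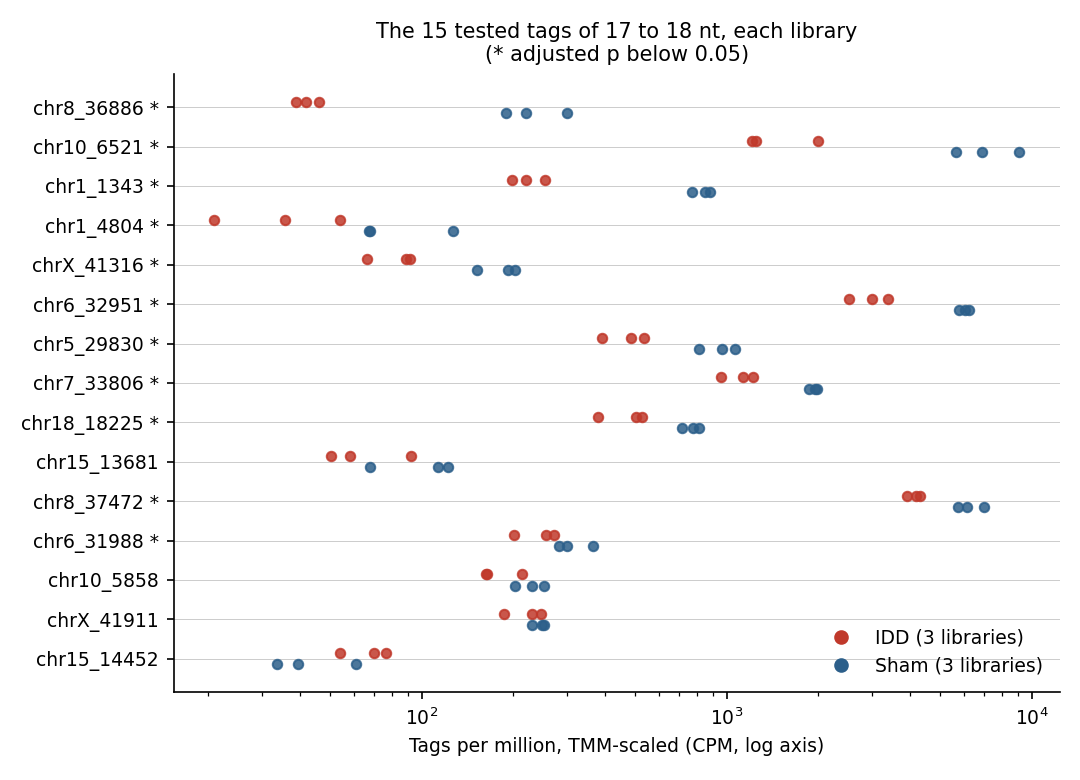
Scaled level of each of the 15 tested tags of 17 to 18 nt (rows, by provisional name) in CPM (counts scaled to equal TMM-adjusted library totals) on a log axis, with 1 point per library, IDD in red above and Sham in blue below the line. A star marks the 11 tags with an adjusted p below 0.05, all of which lay lower in IDD, while chr15_14452 in the last row is the only one with a mean above Sham.

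Of the tags that end in CCA, only chr10_6521 was both abundant and changed. It had 323, 390 and 290 counts in IDD 1, 2 and 3 and 1941, 1632 and 1000 in Sham 1, 2 and 3. Every Sham library was above every IDD library. In CPM, counts scaled to equal library totals after TMM scaling, it fell from 7206 ± 1766 in Sham to 1484 ± 442 in IDD (SD, n = 3 each), 4.89-fold lower (log2 fold change -2.29, standard error SE 0.24, adjusted p = 4.95e-05). The ratio of summed counts was 5.04, with an exact binomial (Clopper-Pearson) 95% interval of 4.70 to 5.40 that covers counting error only. The call held under all 19 other settings.

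The sequence of chr10_6521 differs from that of the abundant chr16_15602 by G7C and A12G, where the first letter is the base of chr16_15602 and positions count from 1 at the 5′ end. The counts of chr10_6521 were 4.95%, 6.22% and 5.02% of those of chr16_15602 in IDD 1, 2 and 3 and 10.7%, 10.1% and 9.70% in Sham 1, 2 and 3. The ratio was therefore lower in every IDD library (exact two-sided permutation test, p = 0.1, the smallest that 3 against 3 libraries allow, and 0.167 after adjustment over the 5 ratios computed). The abundant pair itself fell by 1.59 (chr7_33978) and 1.38 (chr16_15602) on the log2 scale.

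Another pair of CCA-ending tags were 1 base apart from an abundant sequence. chr15_13681 differs from chr16_15602 by U15G and had 13, 18 and 14 counts in IDD and 26, 27 and 12 in Sham. The groups overlapped in the lowest Sham library. Its log2 fold change was -0.66 (SE 0.27) at an adjusted p of 0.05001, just above the threshold, and it passed under 7 of 19 settings, the replicate number as a block among them (-0.62, adjusted p = 0.0418). Its adjusted p ranged from 0.00353 without Sham 3 to 0.236 without Sham 2. As a share of chr16_15602 it was 0.199%, 0.287% and 0.242% in IDD and 0.143%, 0.168% and 0.116% in Sham, higher in every IDD library (exact two-sided permutation test, p = 0.1, adjusted 0.167). Its own level was thus lower in IDD on average while its share of the near-identical sequence was higher.

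chr3_25443 differs from chr7_33978 by C14G and had 3, 3 and 2 counts in IDD and 18, 8 and 7 in Sham, too few to be tested. The Sham values were all above the IDD values. As a share of chr7_33978 it was 0.00688% to 0.01003% in IDD and 0.00871% to 0.0177% in Sham, which overlap (exact two-sided permutation test, p = 0.3, adjusted 0.375). How the authors' counting treated reads this close to an abundant sequence is not known, which leaves these counts uncertain, and the part of misread copies of the abundant sequences in these counts was not tested.

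The remaining 6 CCA-ending tags had at most 19 counts over all libraries. chr11_8623 had 6, 7 and 6 counts in Sham and chr13_10620 had 9, 5 and 2, and both were blank in every IDD library. chr13_10620 shares its last 12 bases with chr16_15602. chr6_33305, which differs from chr7_33978 by U2G, C3G and U4C, went the other way, with 2, 2 and 5 counts in IDD and blanks in Sham. chr12_9312 and chr6_32685 were listed at 2 or 3 counts in each Sham library only, and chr1_1273 at 2 counts in Sham 2 alone. Without chr10_6521 the CCA-ending tags came to 0.00973% ± 0.00241 of an IDD library and 0.0215% ± 0.00350 of a Sham library, and with it to 0.167% ± 0.0440 and 0.689% ± 0.0929.

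The most abundant tags with another end fell by less. chr8_37472 had 1005, 845 and 1004 counts in IDD and 1303, 1367 and 1233 in Sham. Its level was 6273 ± 616 CPM in Sham and 4131 ± 221 in IDD (log2 -0.60, SE 0.11, adjusted p = 0.000419). chr6_32951 had 649, 588 and 814 counts in IDD and 1289, 1375 and 1109 in Sham. Its level was 2.03-fold lower in IDD, at 2970 ± 442 CPM beside 6030 ± 237 (log2 -1.02, SE 0.12, adjusted p = 1.71e-05). For both tags each IDD library was below each Sham library. The call of chr8_37472 was lost under 1 setting, the authors' normalized values with a pseudocount of 1 (adjusted p = 0.0533, with a range of 4.44e-07 to 0.0533 over all settings).

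chr7_33806 had 248, 222 and 293 counts in IDD and 416, 471 and 331 in Sham, and fell from 1934 ± 59.8 to 1105 ± 134 CPM (log2 -0.81, SE 0.12). chr5_29830, of 17 nt, had 101, 95 and 129 counts in IDD and 226, 230 and 144 in Sham (log2 -1.02 from 947 ± 126 to 471 ± 74.5 CPM, SE 0.14). Both had an adjusted p of 5.19e-05 and groups that did not overlap.

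The largest falls outside the CCA-ending tags were those of chr8_36886 and chr1_1343. chr8_36886 had 10, 9 and 10 counts in IDD and 64, 45 and 39 in Sham. Its level fell from 237 ± 57.6 to 42.1 ± 3.68 CPM, 5.58-fold lower (log2 -2.48, SE 0.25, adjusted p = 5.29e-06), the largest fall of the 15. The ratio of its summed counts was 5.64, with a counting interval of 3.77 to 8.71. chr1_1343, of 17 nt, had 51, 43 and 61 counts in IDD and 187, 183 and 151 in Sham. Its level fell from 833 ± 56.8 to 224 ± 28.7 CPM, 3.71-fold lower (log2 -1.89, SE 0.13, adjusted p = 3.82e-07), which was the lowest adjusted p of the 15. In both tags each Sham library held more than 2 times the counts of the highest IDD library.

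Less abundant tags gave a mixed picture. chrX_41316 had 23, 13 and 22 counts in IDD and 41, 48 and 27 in Sham and was lower (log2 -1.14, SE 0.19, adjusted p = 0.000235). chr1_4804 had 14, 7 and 5 counts in IDD and 27, 16 and 12 in Sham and was lower (log2 -1.21, SE 0.35, adjusted p = 0.0118), a call lost without Sham 1 (adjusted p = 0.0583). chr6_31988 had 52, 50 and 65 counts in IDD and 60, 87 and 53 in Sham. Its counts overlapped although its scaled values did not, and its call (log2 -0.39, SE 0.16, adjusted p = 0.0461) was lost under 10 of 19 settings, with an adjusted p of 0.00841 to 0.375.

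The last 3 of the 15 did not pass. chrX_41911 had 48, 48 and 55 counts in IDD and 49, 60 and 44 in Sham, with a log2 fold change of -0.16 (SE 0.15, adjusted p = 0.409) whose sign turned under 3 settings. chr10_5858 had 42, 32 and 51 counts in IDD and 49, 60 and 36 in Sham (log2 -0.35, SE 0.17, adjusted p = 0.0824), and it passed as lower under 4 of 19 settings (adjusted p from 0.0124 to 0.530 over all). chr15_14452, of 17 nt, was the only tested tag with a higher mean in IDD. It had 18, 15 and 13 counts there and 13, 8 and 7 in Sham, which overlap (log2 0.57, SE 0.25, adjusted p = 0.139). With library size alone or the authors' normalized values it passed as higher (adjusted p from 0.00357 to 0.0401).

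**Figure D2:**
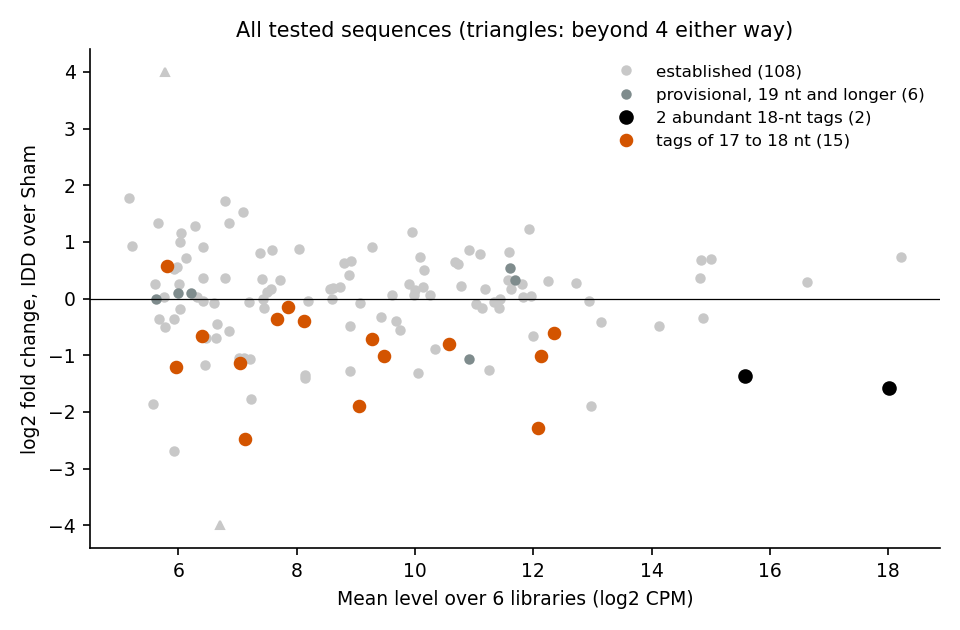
Log2 fold change of IDD over Sham against mean level in log2 CPM for all 131 tested sequences, with the 15 tags of 17 to 18 nt in orange and the 2 abundant 18-nt sequences in black. The orange points lie below 0 at every level except for 1, and the established miRNAs in grey lie on both sides.

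Base content varied widely among the tags, and tags of every GC band were among those that were lower. The tags of 17 to 18 nt held 53.8% ± 10.8 G and C (SD over 114 sequences), against 51.7% ± 9.02 in the 122 provisionally named tags of 19 nt and longer and 47.0% ± 9.05 in the 204 established miRNAs. G was the most frequent base in them, at 31.6% ± 8.87, and it held 24.9% ± 9.49 of the bases of established miRNAs. By GC band, 33 tags were under 50%, 65 between 50% and 65%, and 16 at 65% or more. Tested tags were lower in 4 of 5, 6 of 8 and 1 of 2 cases in these bands. The share of all tags fell in each band, from 0.719% in Sham to 0.528% in IDD under 50%, from 1.07% to 0.610% in the middle and from 0.685% to 0.171% at 65% or more. The last of these is nearly all chr10_6521, whose GC content is 66.7%. The other bands also rest on few tags. Under 50%, chr8_37472 held 1005, 845 and 1004 of the band's 1199, 1014 and 1210 counts in IDD. In Sham it held 1303, 1367 and 1233 of 1621, 1675 and 1449. In the middle band, chr6_32951 and chr7_33806 held most of the counts.

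By 3′ end, the CCA-ending tags are a small part of the group in number. The CCA end was found in 7.89% of the 114 tags, 4.10% of the longer provisionally named tags and 0.980% of established miRNAs. Among tags with another end, 10 of 13 tested were lower, and their share of all tags was 1.14% ± 0.141 in IDD and 1.79% ± 0.221 in Sham, a 1.56-fold difference beside the 4.13-fold difference of the CCA-ending tags. The 4.13-fold value is nearly all chr10_6521, and without this tag the CCA-ending tags differed 2.21-fold. By last base, 40 tags ended in A, 30 in U, 22 in C and 22 in G. Of the tested tags, 5 of 5 that ended in U were lower, 3 of 6 in A, 2 of 3 in G and 1 of 1 in C, beside 30.5% of all tested sequences. These numbers are too small to compare last bases. The call of chr6_31988, which ends in U, was lost under 10 of 19 settings. chr15_13681, which ends in A, missed the threshold narrowly in the edgeR test (adjusted p = 0.05001). The letters UUCGA, which are frequent in the T loop of tRNAs, were in none of the 114 tags on the strand listed and in 0.305% of the other 328 sequences, and UCGA was in 1 tag (0.877%) and in 2.44% of the others. A missing match says only that these letters are not in these tags. In a tRNA of the usual form both runs of letters begin farther from the CCA end than tags this short reach. For the CCA-ending tags the search therefore could not tell pieces of tRNA ends from other sequences. Whether any of the tags come from tRNAs was not tested.

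The tags listed in few libraries make up most of the group in number and little of it in counts. Of the 114 tags, 19 were listed in all 6 libraries, 5 in both groups with gaps, 48 in all 3 Sham libraries and no IDD library, 22 in all 3 IDD libraries and no Sham library, and 20 in 1 or 2 libraries of 1 group. An IDD library listed 47, 49 and 48 of the tags and a Sham library 73, 80 and 72, so the groups did not overlap although Sham 3 had the lowest total of all. The longer provisionally named tags were split likewise, with 52, 48 and 53 listed per IDD library and 74, 73 and 66 per Sham library. Of the established miRNAs, 159 to 170 were listed per IDD library and 165 to 173 per Sham library.

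**Figure D3:**
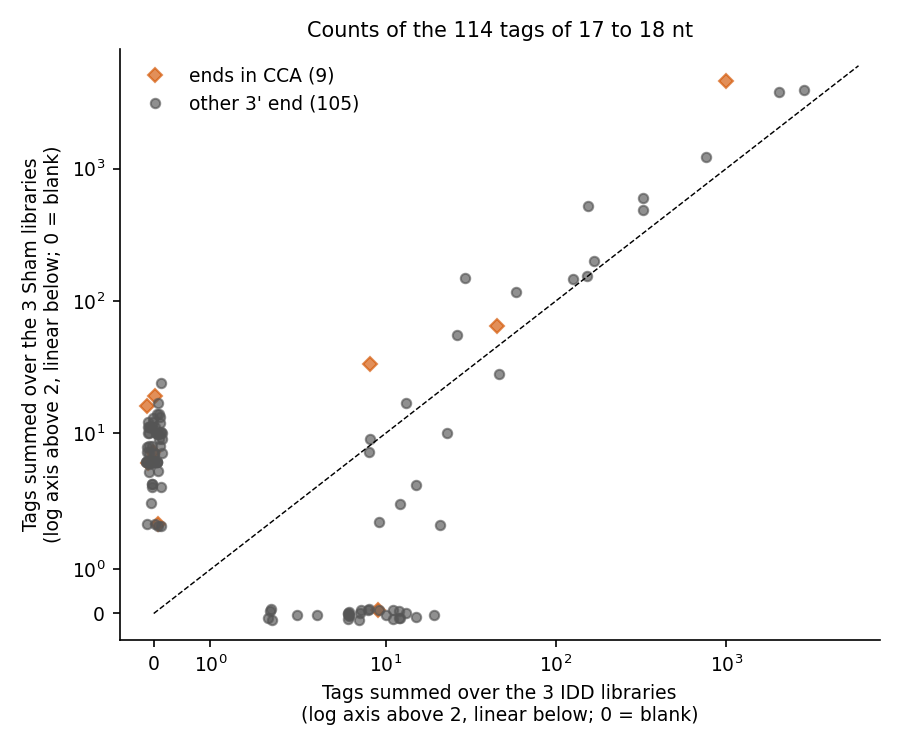
Tags summed over the 3 Sham libraries against tags summed over the 3 IDD libraries for each of the 114 tags, on axes that are logarithmic above 2 and linear below, where 0 stands for blank cells and points under 30 are moved slightly apart. Tags on the left edge were blank in IDD and tags on the lower edge blank in Sham, and 14 of the 15 tested tags lie above the dashed line of equal sums.

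How many tags a library listed depended on the limit. With at least 5 counts, 23, 19 and 23 tags were counted in IDD 1, 2 and 3 and 33, 25 and 19 in Sham 1, 2 and 3, which overlap. With at least 20 CPM of all tags, unscaled by TMM, the numbers were 23, 26 and 23 in IDD and 23, 21 and 27 in Sham. The mean excess of listed tags in Sham was 27.0 at the listing limit and 4.0 at 5 counts. For the CCA-ending tags the groups stayed apart, with 2 or 3 tags in each IDD library and 4 or 5 in each Sham library at either limit. These are few tags, several of them close to the abundant sequences, and chr11_8623 and chr13_10620 among them were blank in IDD. Tags with another end overlapped, with 17 to 21 in IDD and 15 to 28 in Sham at 5 counts. At 20 CPM they numbered 20 to 24 in IDD and 17 to 23 in Sham.

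**Figure D4:**
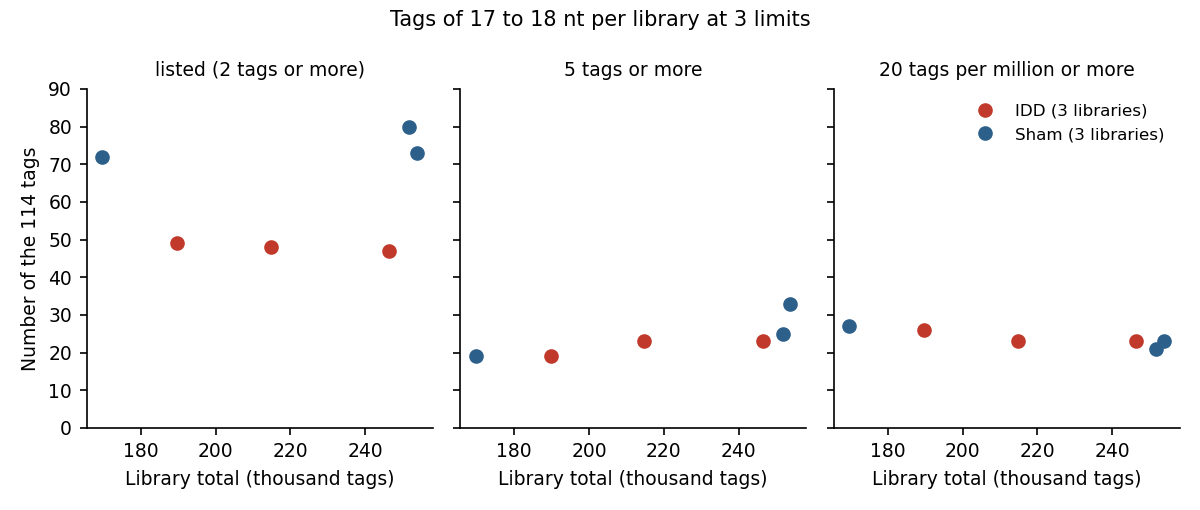
Number of the 114 tags found in each library against the library's total, at 3 limits, with IDD in red and Sham in blue. The Sham libraries stand above the IDD libraries at the listing limit of 2 counts (72 to 80 against 47 to 49) and mix with them at 5 counts and at 20 CPM.

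The 70 tags listed in all libraries of 1 group and none of the other had 6 to 24 counts in all, and 59 of them at most 12. Their counts were even across replicates. In 23 of the 70 the 3 counts were equal, in 17 of these every count was 2, and in 44 the counts differed by at most 1. The mean variance over the mean count was 0.314, where counting noise alone gives 1 when low values are not cut off. In groups of the established miRNAs with means of 2 to 12 counts in 3 listed libraries this index was 0.637, in those of the longer provisionally named tags 0.360, and over all such groups of the tags of 17 to 18 nt 0.550. No count of the 70 tags was above 9, so these groups reach higher means than the 70 and the indices are not at like levels.

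Blank cells therefore need care in these tags. Among sequences with 6 to 24 counts over the 6 libraries, 70 of 78 tags of 17 to 18 nt were listed in exactly 1 whole group, as were 91 of 98 longer provisionally named tags and 18 of 42 established miRNAs. A group listed in part was seen in 7, 6 and 13 of these sequences. The range of 6 to 24 is the one spanned by the 70 tags themselves, so all 70 fall in it. At any count, 14 of the 204 established miRNAs were listed in all Sham and no IDD libraries and 9 the other way. For the 122 longer provisionally named tags these numbers were 55 and 36. The step that listed sequences is not described in the sources used here, and whether a blank stands for few counts or for a sequence that was not searched for in that group was not tested. The 22 tags listed in IDD alone summed to 67, 67 and 72 counts in IDD 1, 2 and 3, and the 48 listed in Sham alone to 183, 156 and 130 in Sham 1, 2 and 3.

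**Figure D5:**
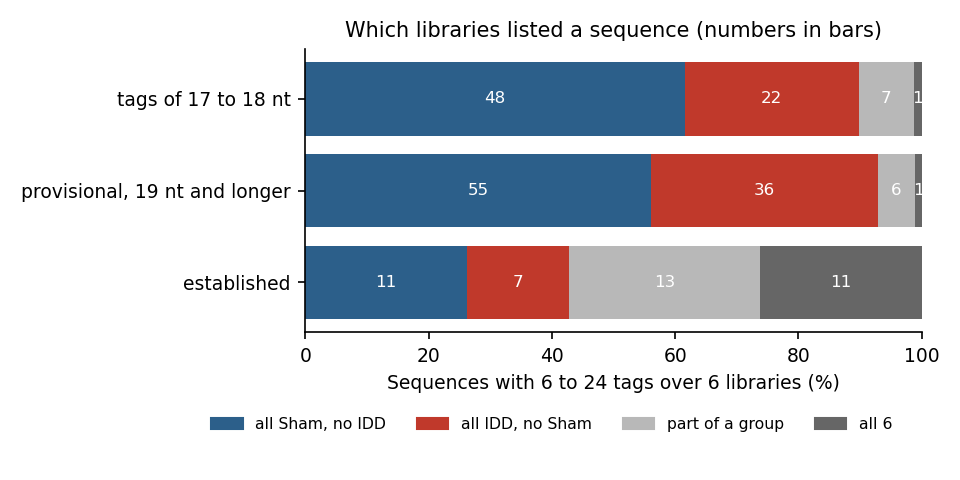
Sequences with 6 to 24 tags over the 6 libraries, by kind of name, as percentages split by which libraries listed them, with numbers in the bars. Of the tags of 17 to 18 nt, 48 were listed in all Sham and no IDD libraries and 22 in all IDD and no Sham libraries, whereas 24 of the 42 established miRNAs were listed in part of a group or in all 6 libraries.

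Only 13 of these 70 tags had more than 3 counts in each library that listed them, 8 in Sham and 5 in IDD. Their mean CPM was set against a floor of 3 counts per library in the blank group. These tags were picked for counts above that floor, so the direction of each ratio was fixed by the choice. The ratios include no counting error and are not tests. In Sham the ratio was 2.95 for chr1_3992 (8, 8 and 8 counts), 2.32 for chr11_8623 and 2.06 for chr7_34803 (8, 5 and 4 counts). In IDD it was 1.897 for chr3_24716 (7, 6 and 6 counts). The other 9 had ratios between 1.21 and 1.71. They were chr1_3385, chr7_35956, chr10_6158, chr3_25913 and a tag named after an unplaced contig in Sham, and chr1_547, chr1_419, chr1_2665 and chrX_41742 in IDD. None of the 70 was in the test, and when every listed sequence was tested, blanks as 0, the calls in the group became 61 lower and 24 higher. Over all 442 sequences that fit called 38.0 percent lower (168) and 26.5 percent higher (117).

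Some tags were listed in both groups but too low to test, and their counts were higher in IDD for some and in Sham for others. chr20_23753 had 7, 5 and 11 counts in IDD and 4, 3 and 3 in Sham, with the groups apart, and chr14_12745 had 6, 3 and 4 against 5, 7 and 5, which overlap. chr6_32078 had 11, 5 and 5 counts in IDD and was listed in Sham 3 alone with 2. chr5_31213 (6, 4 and 5 counts) and chr8_37677 (6, 3 and 3 counts) were listed in all IDD libraries and in Sham 2 alone, at 4 and 3 counts. chr3_26265 had 2, 2 and 4 counts in IDD and 3 in each Sham library, and chr10_6305 had 2, 4 and 2 in IDD, 4 and 3 in Sham 1 and 2 and a blank in Sham 3.

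Some tags overlap each other or an established miRNA. The lines below show the run shared within a pair or trio in capitals, and are given because tags that share a sequence may share a source and are not independent.
chr8_37472: CUGGUUAGUACUUGGAUg
chr18_18225: CUGGUUAGUACUUGGAU
chr10_5858: ACUGGACUUGGAGUCAGA
miR-378a-3p: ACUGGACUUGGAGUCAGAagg
chr4_27068: UCAAGAGCAAUAACGAAA
miR-335: UCAAGAGCAAUAACGAAAaaugu
chr5_29830: uggGUGCUGUAGGCuuu
chr3_26265: ccaaGUGCUGUAGGCuuu
chr1_720: aucggGUGCUGUAGGCa

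chr18_18225 is chr8_37472 without its last base, and its 98, 99 and 127 counts in IDD and 173, 184 and 127 in Sham fell with it (log2 -0.71, SE 0.14, adjusted p = 0.000590). The shorter form was 9.75% to 12.7% of the longer in IDD and 10.3% to 13.5% in Sham, which overlap (exact two-sided permutation test, p = 0.5). Whether both forms have 1 source was not tested.

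chr10_5858 holds the first 18 bases of miR-378a-3p, a miRNA that in mouse and human lies in an intron of the metabolic regulator gene PPARGC1B, and it also matched the mature sequence of that miRNA in RefSeq (build GRCr8), the only 1 of the 114 tags found whole in the 724 mature or 419 hairpin sequences there. miR-378a-3p had 254, 209 and 255 counts in IDD and 174, 209 and 163 in Sham (log2 0.25, SE 0.11, adjusted p = 0.0630), the opposite sign to that of its short form. The short form was 16.5%, 15.3% and 20% of the full one in IDD and 28.2%, 28.7% and 22.1% in Sham. Each Sham ratio was above each IDD ratio (exact two-sided permutation test, p = 0.1, the smallest possible, adjusted 0.167), while neither form passed by itself in the test over all 131 sequences, apart from the 4 settings named above for the short form.

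chr4_27068 holds the first 18 bases of miR-335 and was listed in IDD 2 alone, at 2 counts, while miR-335 itself had 5, 3 and 5 counts in IDD, 2 in Sham 1 and blanks in Sham 2 and 3. This tag was not among the RefSeq matches although it lies whole in a listed miRNA. A missing match in RefSeq thus does not show that a tag lies in no known miRNA. chr3_26265 and chr5_29830 share their last 14 bases, and chr1_720, listed at 2 counts in Sham 1, shares 13 bases with chr5_29830. In this trio only chr5_29830 was tested, as given above. By length, the 17 tags of 17 nt held 0.194% ± 0.0307 of an IDD library and 0.323% ± 0.0150 of a Sham library, and the 97 tags of 18 nt 1.11% ± 0.121 and 2.15% ± 0.135. Just outside the length limit, the 38 provisionally named tags of 19 nt held 0.0285% ± 0.00161 and 0.0312% ± 0.00156.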

How the data were processed

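Per the labels' protocols, adaptors were ligated to total RNA of rat nucleus pulposus, and amplicons of miRNA size were read for 50 cycles. The deposited table gives raw tag counts for each listed sequence, per the file headers. Its lowest listed count is 2, and blank cells were set to 0. The submitters' processing notes list Rnor_6.0, Novoalign 3.02.12 and cutadapt 1.9.3 without roles, and name no program for the listing step. The other deposited table holds normalized values that the authors rounded, treated as a score and used only in alternatives.

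The 491 rows hold 442 distinct sequences, since 49 rows repeat a sequence with identical counts. Tags are named by the chromosome part of the first row's provisional name, and 11 of the 114 stand on more than 1 row, so a name gives no position. Of the 442, filterByExpr (minimum count 10) kept 131, which were scaled with TMM and compared in edgeR 4.0.16 (R 4.3.3) by the two-sided quasi-likelihood test with robust fitting, fitted to all 6 libraries. Standard errors come from dividing the size of the log2 fold change by the root of the F statistic. CPM are counts over TMM-scaled totals, where 3 counts were worth 11.6 to 16.9 CPM. PCR copies are not independent molecules, so intervals cover counting error only. The floor of 3 counts is a fixed value and covers no counting error. Alternatives were other scalings, filters and thresholds, DESeq2 1.42.0, limma 3.58.1, blanks as 1 count, the replicate number as a block and each library left out. The fits were tested on simulated data.

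The tags, lists and tests were chosen with earlier results of these data known. The rule for named tags took every tested tag, all those listed in 1 whole group alone (70, of which those over 3 counts in each library are named), the 8 next by count, the most abundant per GC band and 3′ end, and relatives of tested tags. Shared runs of 10 bases were looked for after the data had been seen. Around their group means, same-numbered libraries had correlations of 0.111, 0.112 and 0.204, and IDD 2 with Sham 1, of unlike number, gave 0.109. No label says that same-numbered libraries are pairs. The main test and the permutation tests took all libraries as unpaired, and the replicate number entered only as a block in an alternative. Replicates varied beyond counting noise (chi-square over its degrees of freedom 4.92 to 24.3). The labels name no batch.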

Additional observations from a re-analysis of the deposited data

How the results depend on the processing

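Of the 11 calls of lower, 8 held under all 19 alternatives, and the exceptions are given with their tags above. The number of tags lower lay between 9 and 14 under every alternative except no filter on low counts, with 61 lower and 24 higher of 114 tested and 285 calls over all 442 sequences. At least 5 counts in 3 libraries gave 2 higher. That filter can be met by 1 group alone, as by chr3_24716 in IDD and chr1_3992 in Sham. The direction of calls on such tags follows in part from how they entered the test. Library size alone and the authors' normalized values with a pseudocount of 1 or 10 gave 1 higher each. Those 3 scalings moved the median of all tested sequences by 0.19, 0.23 and 0.22 on the log2 scale and the split of all calls from 38 higher and 40 lower to 52 and 29, 56 and 29, and 59 and 30. Scaling on established miRNAs moved the median by -0.16 and gave 29 higher and 44 lower, and leaving out Sham 3 moved it by -0.11. With the replicate number as a block, 12 tags were lower and none higher, with chr15_13681 added, and the block changed no other call among the 15. Leaving out 1 library at a time gave 10 to 13 tags lower, none higher and 58 to 77 calls in all. Without the 2 abundant 18-nt sequences, an alternative chosen after the data had been seen, 12 tags were lower.

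The ratio of the Sham to the IDD share, 1.89 over all tags, was 2.78 over tags outside the 2 abundant sequences, 2.87 over established miRNAs and 0.777 over provisionally named tags. For CCA-ending tags, 4.13, it was 6.08, 6.28 and 1.71, and for other ends, 1.56, it was 2.29, 2.37 and 0.644. The CCA-ending values are nearly all chr10_6521, and without this tag they were 2.21 over all tags and 3.26, 3.37 and 0.9135. The reversal over provisionally named tags follows from a denominator of which the 2 abundant sequences hold 87.9% in IDD and 92.8% in Sham. The difference in tags listed per library (Sham minus IDD) was 4.0 at 5 counts and -0.333 at 20 CPM, against 27.0 as listed, and for CCA-ending tags 2.33 and 2.0. With at least 5 counts in each library, 3 tags and not 70 were listed in 1 group alone. The cause of the other changes was not tested. With 3 libraries a group and 3 counts worth up to 16.9 CPM, most of the 99 untested tags are at or near the floor.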
